A study of Mus musculus with 22 samples.

Results

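The Hox cluster genes were followed through the differentiation of mouse pluripotent stem cells into osteoblast cultures. Members were the genes whose symbol is Hox, a cluster letter from a to d and a paralogue number. Of the 39 such genes in the mouse genome, 38 stood in at least 1 of the 3 tables of differential expression that the authors deposited, 36 in each table and 34 in all 3. The tables of the embryonic stem cell (ESC) comparisons held 19781 genes each and the table of the induced pluripotent stem cell (iPSC) comparison held 19057. Hoxb6 and Hoxd1 had values only in the iPSC table, Hoxc12 and Hoxd12 only in the ESC tables, and Hoxc11 was not analysed here. Members were grouped by cluster and by paralogue number into anterior (1 to 4), central (5 to 9) and posterior (10 to 13) classes. On the GRCm38 build, GENCODE places Hoxa on chromosome 6 (chr6:52155590-52260880, minus strand), Hoxb on chromosome 11 (chr11:96194316-96368256, plus strand), Hoxc on chromosome 15 (chr15:102921103-103036852, plus strand) and Hoxd on chromosome 2 (chr2:74668310-74765142, plus strand).

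Hox genes encode homeodomain transcription factors that give cells along the body axis their regional identity. The order of the genes along each cluster matches their order of expression, so that anterior genes are switched on first and reach furthest towards the head, while posterior genes come on late in the tail, the distal limb and the urogenital region. Retinoic acid activates the anterior genes, Polycomb complexes keep the clusters silent in pluripotent cells, and much of the skull forms from neural crest that lacks Hox expression, whereas the limbs and trunk skeleton form from cells that carry it.

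All cells carried Col2.3GFP, in which a piece of the collagen type I alpha 1 promoter switches on GFP, a green fluorescent protein, in cells of the osteoblast lineage. The ESC group was undifferentiated Col2.3GFP ESC at passage 20 to 30 (3 samples in the labels), and ESC-OB was osteoblast cultures from that line after 35 to 40 days (3 samples). Sorted ESC-OB GFP+ was the GFP-positive fraction of such cultures at the same time (3 samples, no passage given). The iPSC group was undifferentiated Col2.3GFP iPSC at passage 10 to 20 and iPSC-OB was osteoblast cultures grown from them for 35 to 40 days (2 samples each). Every differentiated group had passed through embryoid bodies for 6 days with 0.1 µM retinoic acid present from day 3 to day 5. Each cell source was 1 line, the cultures were not purified apart from the sorted group, and neither the use of feeder cells nor the library kit is given per sample in the sources used here. Nothing states that replicates came from separate cultures, so p-values measure the spread between these libraries, which may be technical. Primary calvarial osteoblasts and bone cells sorted on GFP were not analysed here.

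The authors' deposited tables give, per gene, a base mean (the mean of size-factor-scaled counts over all libraries of a fit), a log2 fold change, its error and an adjusted p. Positive changes were read as higher in the differentiated cells, because the pluripotency genes Pou5f1, Nanog and Esrrb are strongly negative in each. Because reads are whole, a low base mean can be split into the reads of each library, and this was done for every member. The ESC fit held 3 ESC, 3 ESC-OB and 3 sorted libraries, and the iPSC fit held 3 iPSC libraries, 1 more than the labels list, and 2 iPSC-OB libraries. The group of each library was inferred from its fit to the authors' changes. Libraries are named A, B and C from the deepest to the shallowest within a group, and were not tied to labelled replicates. Estimated depth in M reads (M for mega) was 4.49 to 19.5 for ESC, 6.72 to 11.5 for ESC-OB, 22.4 to 30.1 for sorted ESC-OB GFP+, 10.4 to 13 for iPSC and 10.1 to 17.7 for iPSC-OB. Levels are in CPM, size-factor-scaled reads per M reads of the fit's mean library total, with ± giving the SD over libraries. A floor of 3 reads over a whole group was 0.108 CPM for ESC, 0.113 for ESC-OB, 0.0406 for the sorted cells, 0.0898 for iPSC and 0.114 for iPSC-OB, which covers counting error only. ESC and iPSC tables were normalised separately, so levels set across them carry no test. The labels were borne out in part by markers: 4 of 4 pluripotency genes were lower and 4 of 4 fibroblast genes higher in all 3 authors' deposited tables. Of 7 osteoblast genes, 5, 6 and 5 were higher in ESC-OB, sorted and iPSC-OB and 1 was lower in each, and Sp7 (osterix) was at -0.05 ± 1.13 in iPSC-OB in the authors' deposited table, short of the threshold.

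Strand use in the authors' counting is not stated in the sources used here, and 12 of the 39 genes share exon bases with another annotated gene. The shared part was 58.5% for Hoxb2 and 63.9% for Hoxb3, both with the antisense gene Hoxb3os, and 79.3% for Hoxd3, 45.1% for Hoxd4, 25.1% for Hoxa3 and 15% for Hoxa2. Reads of these members are therefore uncertain between the Hox gene and its neighbour on the annotation.

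The promoter windows below are the 250 bases before the annotated start of 4 members on which the comparisons turn: Hoxa2, which was higher in all 3 differentiated groups, Hoxb4 and Hoxc4, copies of 1 ancestral gene that went in opposite directions in ESC-OB, and Hoxd13, which was lower in all 3. The windows are RefSeq sequences on GRCm38.p6, while the authors' build was mm9, and 22 Hox genes had at least 1 window (24 in all). Capitals mark matches on either strand to TGATNNAT, a motif bound by Pbx together with a Hox protein, to AGGTCA, a half-site of retinoic acid receptors, or to TTTATG, a Cdx motif.
Hoxa2 promoter, chr6:52164832-52165081, minus strand: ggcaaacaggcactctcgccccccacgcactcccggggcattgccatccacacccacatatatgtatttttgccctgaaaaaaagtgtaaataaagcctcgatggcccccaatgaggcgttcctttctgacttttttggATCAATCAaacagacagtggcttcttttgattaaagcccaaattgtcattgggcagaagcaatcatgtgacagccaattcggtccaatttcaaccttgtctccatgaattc
Hoxb4 promoter, chr11:96318017-96318266, plus strand: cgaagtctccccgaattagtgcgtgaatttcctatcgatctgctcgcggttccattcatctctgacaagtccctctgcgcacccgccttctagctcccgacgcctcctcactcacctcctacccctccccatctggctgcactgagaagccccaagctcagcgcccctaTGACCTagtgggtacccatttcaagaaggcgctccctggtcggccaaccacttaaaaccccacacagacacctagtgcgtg
Hoxc4 promoter, chr15:103034145-103034394, plus strand: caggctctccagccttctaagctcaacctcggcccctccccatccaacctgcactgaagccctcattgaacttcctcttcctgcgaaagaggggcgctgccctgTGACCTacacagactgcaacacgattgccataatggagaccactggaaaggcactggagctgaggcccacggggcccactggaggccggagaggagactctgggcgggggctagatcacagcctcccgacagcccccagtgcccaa
Hoxd13 promoter, chr2:74667975-74668224, plus strand: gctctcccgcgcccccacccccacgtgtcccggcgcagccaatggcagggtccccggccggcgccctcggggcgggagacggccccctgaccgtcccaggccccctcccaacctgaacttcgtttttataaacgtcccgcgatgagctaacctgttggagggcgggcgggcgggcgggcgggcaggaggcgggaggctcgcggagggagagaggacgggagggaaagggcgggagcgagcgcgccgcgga

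The Hoxa2 window held 1 match to TGATNNAT, the windows of Hoxb4 and Hoxc4 1 match each to AGGTCA, and the Hoxd13 window none of the 3 motifs. A match is a description of these letters and not a binding site. Over 32851 windows of all genes, 7.68% held TGATNNAT, 14% AGGTCA and 10.8% TTTATG. Of the 24 Hox windows, 4, 6 and 5 held these motifs, in that order. CpG dinucleotides, which are dense in promoters that Polycomb complexes occupy, numbered 6 in the Hoxa2 window, 14 in Hoxb4, 8 in Hoxc4 and 31 in Hoxd13. The median was 12.5 over the Hox windows and 6.00 over all windows.

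Hox reads were few in every group, and in the ESC series their make-up by class differed between groups while the ranges of their sum overlapped. The summed Hox level was 20.4, 55.6 and 16.2 CPM in ESC A, B and C, 24.1, 33.5 and 30.5 CPM in ESC-OB, and 22.1, 21.5 and 43.4 CPM in the sorted cells. Posterior genes held 65.3%, 48.8% and 71.0% of the Hox reads in the 3 ESC libraries, 10.6%, 5.81% and 10.3% in ESC-OB, and 7.13%, 7.90% and 1.95% in the sorted cells. The 95% Wilson interval of the lowest ESC share was 43.0 to 54.6% and that of the highest ESC-OB share 7.47 to 15%, so the groups were apart by more than counting error. One gene, Hoxc13, held 188 of 247, 84 of 137 and 35 of 49 posterior reads in ESC A, B and C. Without it, posterior genes held 31.1%, 26.9% and 41.2% of the Hox reads in ESC and 1.68 to 4.40% in ESC-OB, and anterior genes held the largest share in each ESC library (44.1 to 46.2%). Anterior genes held 21.7 to 32.4% of Hox reads in ESC, 66.5 to 74.8% in ESC-OB and 65.3 to 83.0% in the sorted cells. The shares of a library add to a fixed total, so this rise is not independent of the posterior fall. In level, the anterior sum was 4.70, 18.0 and 3.53 CPM in ESC A, B and C. It was 16.0, 25.1 and 21.2 CPM in ESC-OB and 15.1, 14 and 36.0 CPM in the sorted cells. ESC B thus lay above ESC-OB A and sorted A and B, and the groups overlapped in anterior level.

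**Figure D1:**
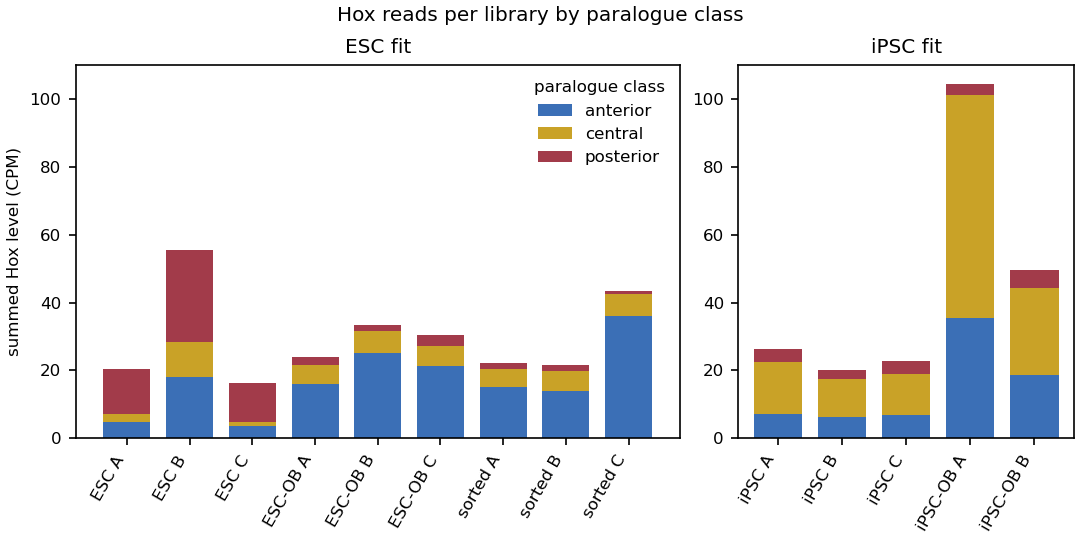
Summed level of the Hox members in each library (y axis, CPM, from 0), stacked by anterior, central and posterior paralogue class, with the ESC fit on the left and the separately normalised iPSC fit on the right. Posterior genes form the largest block in all 3 ESC libraries (11.5 to 27.1 CPM) and a small one in all 6 differentiated libraries of that fit (0.847 to 3.14 CPM), while the 2 iPSC-OB libraries differ in height (104 and 49.5 CPM).

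The iPSC libraries had another make-up. Central genes held 57.5%, 56.1% and 53.8% of the Hox reads in the 3 iPSC libraries, and posterior genes 15%, 12.1% and 16.0%. The iPSC-OB libraries kept central genes in front, at 62.9% and 51.6%, while posterior genes held 3.19% and 10.7%. The summed level was 26.4, 20.0 and 22.7 CPM in iPSC and 104 and 49.5 CPM in iPSC-OB, so both differentiated libraries lay above all 3 undifferentiated ones.

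Divided by exon length, the leading genes differed between the groups. In ESC, Hoxc13, a gene of skin, hair and tail, led at 4.74 ± 1.78 CPM per kb, with its lowest library (3.34) above the highest of Hoxc4 (2.62), which came next at 1.52 ± 0.982. In ESC-OB, Hoxb2 led at 2.0 ± 0.408 CPM per kb, ahead of Hoxb3 (1.43 ± 0.520), which also acts in the hindbrain. The libraries of Hoxb3 (0.858 to 1.87) overlapped those of Hoxb2 (1.54 to 2.33). In the sorted cells Hoxb2 led at 5.34 ± 3.37 CPM per kb, its lowest library (2.82) above the highest of Hoxa3 (2.25). In iPSC, Hoxc8 and Hoxb9, which pattern the thorax, were level at 1.24 CPM per kb (SD 0.167 and 0.206), and in iPSC-OB the central gene Hoxc6 stood first at 5.15 ± 2.72, with libraries at 3.23 and 7.08 that overlapped those of Hoxc8 (1.62 and 5.03) and lay above those of Hoxb2 (2.56 and 2.67).

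ESC-OB against ESC asks which members changed as ESC were taken through embryoid bodies and osteogenic medium. Most called rises were in anterior genes of Hoxa and Hoxb. Most called falls were in posterior genes of Hoxb, Hoxc and Hoxd. At an adjusted p under 0.05, 6 of 36 members were higher, where 38.6% of all genes tested were, and 6 were lower, where 31.0% were (69.6% in either direction); 18 did not pass and 6 had no adjusted p. Of the 30 members with an adjusted p, 20.0% were higher and 20.0% lower. All members had a base mean under 60, and among all genes under that limit with an adjusted p, a background chosen after the data were seen, 31.6% were higher and 17.0% lower. The members' median log2 change of 0.03 compares with 0.22 over all genes and 0.61 over genes with a base mean under 60. By class, 5 of 11 anterior members rose and 1 fell, 1 of 14 central members rose and 1 fell, and 0 of 11 posterior members rose and 4 fell. The classes were not tested against the shares over all genes. By cluster, Hoxa had 2 rises and 0 falls, Hoxb 4 and 2, Hoxc 0 and 3, and Hoxd 0 and 1.

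**Figure D2:**
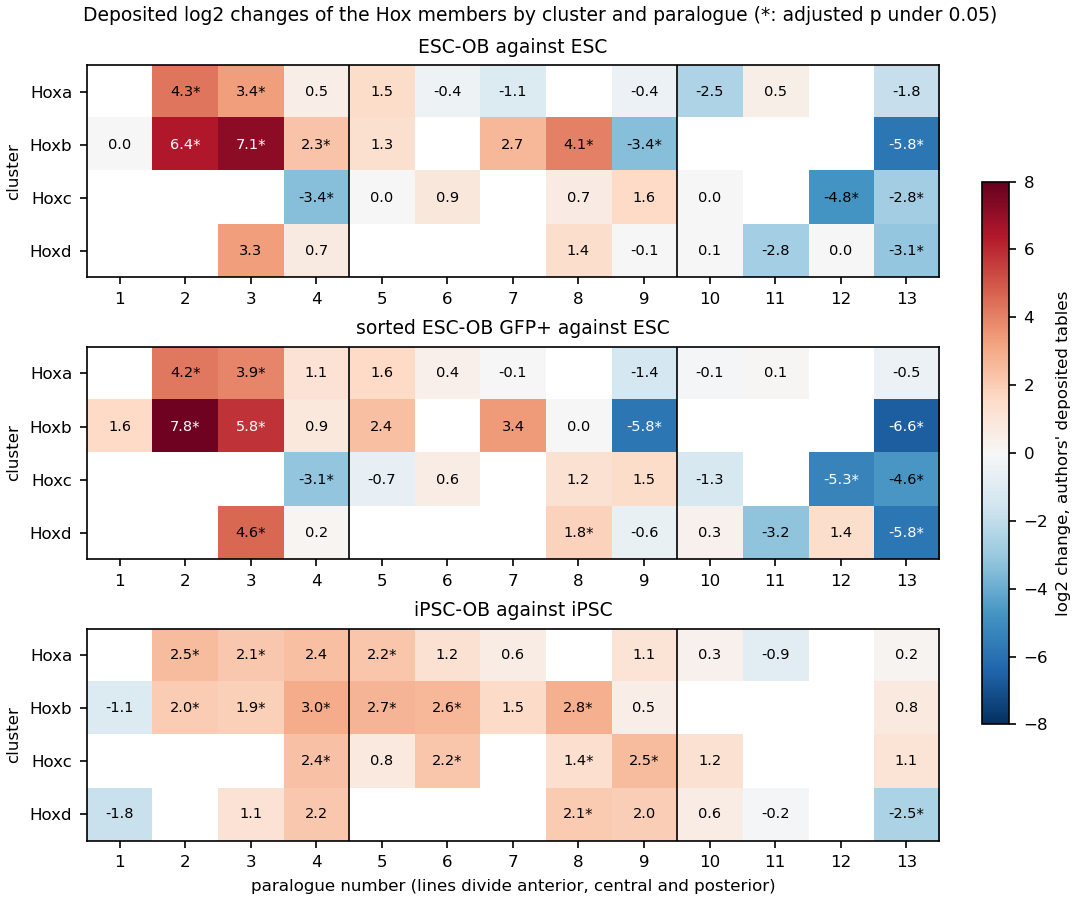
Log2 changes from the authors' deposited tables for each Hox member, by cluster (rows) and paralogue number (columns), in the 3 comparisons; red is higher and blue lower in the differentiated cells, an asterisk marks an adjusted p under 0.05, and blank squares are genes with no row in that table, not reported here or not present in the mouse. In both ESC panels the asterisks on red squares lie mostly at numbers 2 to 4 and those on blue squares mostly at 9 to 13, while in the iPSC panel 14 red squares from 2 to 9 and 1 blue square at 13 carry one.

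Among the anterior genes, Hoxb2 and Hoxb3, neighbours that pattern the hindbrain, had 0 reads in all 3 ESC libraries. Hoxb2 was at 3.48, 3.79 and 2.51 CPM in ESC-OB A, B and C, at least 30.2-fold higher against the floor of 3 reads in the ESC group. Hoxb3 was at 3.02, 6.60 and 5.49 CPM in ESC-OB, at least 46.7-fold higher. No ESC-OB library of either gene came near the ESC values. The authors' deposited table has Hoxb2 at 6.42 ± 1.27 (log2 change ± standard error, adjusted p = 9.85e-07) and Hoxb3 at 7.14 ± 1.31 (adjusted p = 1.25e-07), fitted values that are shrunken and are no bounds. In bulk samples such as these, fewer cells with a transcript and less of it per cell cannot be told apart.

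Hoxa2, which sets the identity of the second pharyngeal arch, had 1, 1 and 0 reads in ESC (0.0541, 0.198 and 0 CPM) and 0.458, 3.89 and 2.51 CPM in ESC-OB. Its ESC-OB libraries differed among themselves by more than those of Hoxb2, yet none reached down to an ESC library. The authors' deposited table gives Hoxa2 a rise of 4.29 ± 1.09 (adjusted p = 1.77e-04). Hoxa3, needed for thymus and parathyroid, was at 0.0541, 0.791 and 0 CPM in ESC and 2.11, 3.46 and 2.20 CPM in ESC-OB, and rose by 3.37 ± 0.79 (authors' deposited table, adjusted p = 3.92e-05). Hoxb4, known from blood stem cells and cervical vertebrae, went from 0.216, 0.989 and 0.941 CPM to 2.75, 3.14 and 3.45 CPM. It rose by 2.27 ± 0.68 (authors' deposited table, adjusted p = 0.00153), and without ESC A the refitted change was 1.62, which no longer passed.

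Hoxc4 was the anterior member that fell. It was at 3.08, 6.72 and 1.88 CPM in ESC A, B and C and at 0.183, 0.216 and 0.628 CPM in ESC-OB, with no overlap. The authors' deposited table has it at -3.43 ± 0.82 (adjusted p = 6.67e-05), opposite in sign to its paralogue Hoxb4. Of the remaining anterior members, Hoxa4, Hoxb1, Hoxd3 and Hoxd4 ranged from 0.00 to 3.32 in the authors' deposited table and were not called, Hoxb1 having no adjusted p.

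Among the central genes, Hoxb8 and Hoxb9 were called in opposite directions. Hoxb8 had 0 reads in ESC, and 0, 4 and 5 reads in ESC-OB A, B and C (0, 0.433 and 0.785 CPM). Its rise of 4.06 ± 1.83 (authors' deposited table, adjusted p = 0.0393) rests on those 9 reads and did not pass without ESC A, ESC B, ESC-OB B or ESC-OB C (refitted changes 3.28 to 3.86). Hoxb9, a rib-patterning gene, was at 1.35, 2.18 and 0.706 CPM in ESC and had 1 read in each ESC-OB library. It fell by 3.43 ± 1.05 (authors' deposited table, adjusted p = 0.00199), and the call was kept without any 1 library. The other 12 central members lay between -1.11 and 2.68 in the authors' deposited table, and none was called.

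The posterior genes that fell were Hoxb13, Hoxc12, Hoxc13 and Hoxd13, which lie at the 5′ ends of their clusters and act in the tail, hair, prostate and digits. Hoxc13 was at 10.2, 16.6 and 8.23 CPM in ESC and 1.65, 1.41 and 1.88 CPM in ESC-OB, and fell by 2.79 ± 0.48 (authors' deposited table, adjusted p = 1.42e-08). Hoxc12 had 23, 10 and 6 reads in ESC and 1, 0 and 0 in ESC-OB (-4.78 ± 1.28, authors' deposited table, adjusted p = 3.67e-04). Hoxd13 was at 1.14, 1.98 and 1.18 CPM in ESC and 0.183, 0.108 and 0.157 CPM in ESC-OB, and fell by 3.09 ± 0.97 (authors' deposited table, adjusted p = 0.00250). In these 3 genes every ESC library exceeded every ESC-OB library several-fold. Hoxb13 had 5, 16 and 1 reads in ESC (0.270, 3.16 and 0.235 CPM) and 0 in all ESC-OB libraries, at least 10.8-fold lower, with -5.80 ± 1.74 (authors' deposited table, adjusted p = 0.00150). ESC B alone held 16 of its 22 reads, and without it the bound was 2.23-fold and the refitted change -4.01, still called. Of the other 7 posterior members none passed, 4 of them without an adjusted p, and their changes ran from -2.75 to 0.49 in the authors' deposited table. Hoxa10, at -2.49 ± 1.27 there (adjusted p = 0.0712), passed the threshold when ESC A or ESC-OB A was left out (refitted -2.98 and -3.67).

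**Figure D3:**
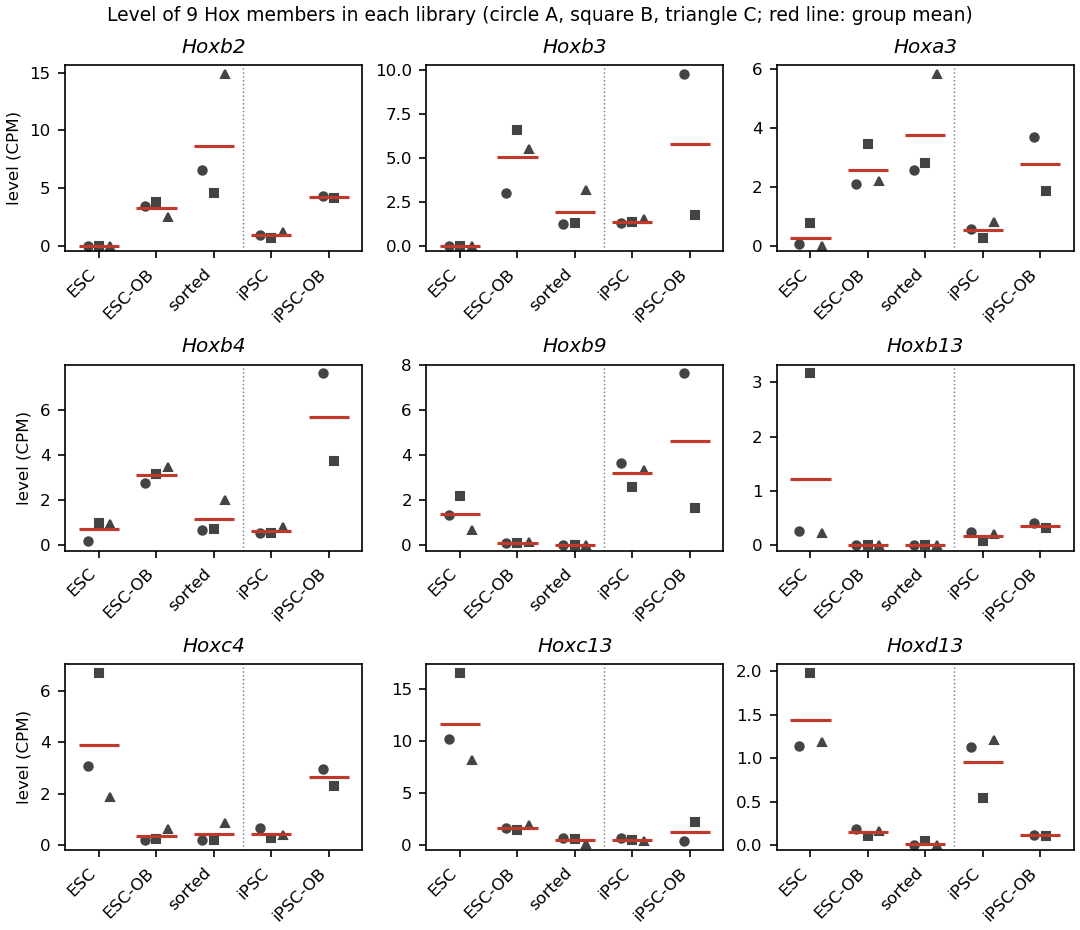
Level of 9 members (y axes, CPM, from 0, own scale per gene) in every library of the 5 groups, with circles, squares and triangles for libraries A, B and C, a red line at the group mean, and a dotted line dividing the separately normalised ESC and iPSC fits. Hoxb2 and Hoxb3 lie at 0 in all ESC libraries and at 1.23 CPM or more in all ESC-OB and sorted libraries, Hoxb13 lies at 0 in all ESC-OB and sorted libraries, and ESC B is the top ESC library for Hoxa3, Hoxb4, Hoxb9, Hoxb13, Hoxc4, Hoxc13 and Hoxd13.

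Counted by groups that do not overlap, 6 members lay wholly above and 6 wholly below the ESC libraries in ESC-OB. A background exists for genes with a base mean under 10, of which 20.1% lay above and 11.4% below, and of the 27 members under that limit 1 lay above and 4 below. Of the 12 calls, 11 had groups that did not overlap. Calls and overlap come from the same libraries, so this is no independent check, and the share over all called genes was not taken. Of the same calls, 10 were kept without any 1 library. In these refits the spread of each gene was held at its value from all libraries.

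Sorted ESC-OB GFP+ against ESC asks the same of the cells in which the osteoblast reporter was active. The comparison shares its 3 ESC libraries with the one above, so the results are not independent of each other. Of 36 members, 6 were higher (39.1% of all genes tested) and 6 lower (32.4% of all genes, 71.5% in either direction), 22 did not pass and 2 had no adjusted p. Of the 34 members with an adjusted p, 17.6% were higher and 17.6% lower, against 30.6% and 19.2% of genes with a base mean under 60. The median log2 change was 0.26 over the members, 0.33 over all genes and 0.78 over genes with a base mean under 60. Anterior members accounted for 5 rises and 1 fall, central members for 1 and 1, and posterior members for 0 and 4.

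Hoxb2 was the highest member in the sorted cells, at 6.55, 4.60 and 14.9 CPM against 0 reads in ESC. That was at least 80.6-fold higher, and 7.81 ± 1.26 (authors' deposited table, adjusted p = 1.60e-09). Hoxb3 was at 1.23, 1.28 and 3.20 CPM, at least 17.6-fold higher than ESC and 5.76 ± 1.31 (authors' deposited table, adjusted p = 2.09e-05). Sorted C was the highest library for both genes, and without it the bounds were 51.6-fold and 11.6-fold. Hoxa2 was at 0.666, 2.40 and 3.39 CPM (4.21 ± 1.09, authors' deposited table, adjusted p = 1.95e-04) and Hoxa3 at 2.59, 2.82 and 5.84 CPM (3.89 ± 0.77, adjusted p = 1.10e-06). Hoxd3, which patterns the first vertebrae, had 0 reads in ESC and 3, 4 and 43 reads in sorted A, B and C. Its 4.60 ± 1.60 (authors' deposited table, adjusted p = 0.00619) rests on sorted C, since the refitted change without that library was 2.65, not called. Hoxd8, a central gene of the trunk, was at 0.216, 0.791 and 0 CPM in ESC and 1.12, 0.704 and 1.74 CPM in the sorted cells. Its ranges overlap, and 1.82 ± 0.79 (authors' deposited table, adjusted p = 0.0310) did not pass without ESC A, ESC C or sorted C (refitted 1.40 to 1.45). Hoxb4 was at 0.701, 0.746 and 2.02 CPM in the sorted cells and 0.87 ± 0.68 in the authors' deposited table, short of the threshold.

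All 6 members that were lower in the sorted cells were nearly without reads there, Hoxc4 and Hoxc13 apart. Hoxb13 had 0 reads in all 3 sorted libraries, at least 30.1-fold lower than ESC, and -6.59 ± 1.65 (authors' deposited table, adjusted p = 1.27e-04). Without ESC B the bound was 6.22-fold and the refitted change -4.73, still called. Hoxb9 and Hoxd13 had 0, 1 and 0 reads in sorted A, B and C, and -5.80 ± 1.20 and -5.81 ± 1.18 (authors' deposited table, adjusted p = 3.01e-06 and 1.71e-06). Hoxc12 had 2, 0 and 0 reads there (-5.35 ± 1.11, authors' deposited table, adjusted p = 3.17e-06). These libraries were the deepest of the fit, so their zeros bind more tightly than those of ESC-OB. Hoxc13 was at 0.666, 0.538 and 0.0941 CPM (-4.63 ± 0.49, authors' deposited table, adjusted p = 1.43e-20) and Hoxc4 at 0.175, 0.207 and 0.847 CPM (-3.14 ± 0.74, adjusted p = 3.89e-05). Every sorted library of these 6 genes lay below every ESC library. Non-overlapping groups numbered 8 above and 6 below in all, with 4 and 4 among the 27 members under a base mean of 10, where the background was 21.1% and 12.0%.

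The sorted and unsorted cultures were compared through the difference of their changes, where a z test takes both standard errors as independent and p-values are adjusted over all 19739 genes tested. Hoxc13 was the only 1 of 36 members called, lower in the sorted cells by 1.84 ± 0.68 on the log2 scale (adjusted p = 0.0338); 12.1% of all genes were called lower and 10.7% higher. That test overstates the error because the ESC libraries are shared. With the error of the direct contrast from the rebuilt fit, Hoxb2 was higher in the sorted cells by 1.39 ± 0.50 (adjusted p = 0.0175), and Hoxb3 and Hoxb4 were lower by 1.38 ± 0.55 and 1.40 ± 0.59 (adjusted p = 0.0312 and 0.0463), as was Hoxc13 (adjusted p = 0.00176). The backgrounds there were 20.4% higher and 19.5% lower. Hoxb2 and Hoxb3 thus went in opposite directions between sorted and unsorted cells. For Hoxb3 the groups overlapped, with sorted C at 3.20 CPM and ESC-OB A at 3.02 CPM. Both genes are neighbours in the Hoxb cluster and overlap Hoxb3os, whose part in these reads was not tested.

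iPSC-OB against iPSC put the same question to the reprogrammed line, and here 6 of 12 anterior, 8 of 15 central and 0 of 9 posterior members rose. Of 36 members 14 were higher (26.1% of all genes tested), 1 was lower (23.1% of all genes, 49.2% in either direction), 20 did not pass and 1 had no adjusted p. Of the 35 members with an adjusted p, 40.0% were higher and 2.86% lower, against 20.4% and 9.30% of genes with a base mean under 60. The median log2 change was 1.30 over the members, 0.17 over all genes and 0.52 over genes with a base mean under 60. Of the 36 changes, 31 were positive in the authors' deposited table. So were 10516 of 19057 over all genes and 4994 of 7778 over genes with a base mean under 60. By cluster the rises were 3 of 11 in Hoxa, 6 of 10 in Hoxb, 4 of 7 in Hoxc and 1 of 8 in Hoxd.

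Hoxb2, Hoxb3 and Hoxb8, without a read in ESC, had reads in all 3 iPSC libraries. Hoxb2 was at 0.970, 0.718 and 1.21 CPM in iPSC A, B and C and at 4.35 and 4.17 CPM in iPSC-OB A and B, and rose by 2.05 ± 0.54 (authors' deposited table, adjusted p = 5.22e-04). Hoxb4 went from 0.566, 0.539 and 0.807 CPM to 7.62 and 3.75 CPM, a rise of 2.98 ± 0.62 (authors' deposited table, adjusted p = 8.76e-06). Hoxb8 went from 0.323, 0.628 and 0.505 CPM to 5.00 and 2.92 CPM, a rise of 2.83 ± 0.67 (authors' deposited table, adjusted p = 9.64e-05). In each of these 3 genes both iPSC-OB libraries exceeded all iPSC libraries. Hoxb5 and Hoxb6, the trunk genes between them, rose by 2.72 ± 0.80 and 2.63 ± 0.79 in the authors' deposited table, and Hoxb3 by 1.89 ± 0.74.

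In the Hoxa cluster Hoxa2 had 3, 2 and 0 reads in iPSC and 26 and 9 in iPSC-OB (2.50 ± 1.02, authors' deposited table, adjusted p = 0.0310). Hoxa5, a gene of the lung and the neck-thorax boundary, went from 0.727, 0.718 and 0.303 CPM to 4.35 and 1.88 CPM (2.20 ± 0.74, authors' deposited table, adjusted p = 0.00720). Hoxa3 rose by 2.15 ± 0.74 there. In the Hoxc cluster Hoxc9, a thoracic gene, went from 0.727, 0.539 and 0.303 CPM to 2.80 and 4.27 CPM (2.53 ± 0.67, authors' deposited table, adjusted p = 5.52e-04). Hoxc4 went from 0.647, 0.269 and 0.404 CPM to 2.98 and 2.29 CPM (2.36 ± 0.72, authors' deposited table, adjusted p = 0.00283). Hoxc6 and Hoxc8 rose by 2.22 ± 0.57 and 1.35 ± 0.60 in the authors' deposited table. In Hoxd, Hoxd8 had 0.970, 0.359 and 0.505 CPM in iPSC and 6.01 and 0.730 CPM in iPSC-OB, so that iPSC-OB B lay within the iPSC range (2.12 ± 0.91, authors' deposited table, adjusted p = 0.0413).

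Hoxd13 was the member that fell, from 1.13, 0.539 and 1.21 CPM in iPSC to 0.119 and 0.104 CPM in iPSC-OB (-2.51 ± 0.98, authors' deposited table, adjusted p = 0.0234), or from 32 reads to 3. The refitted change stayed between -2.69 and -2.18 but did not pass without iPSC C. Hoxa4 and Hoxd4, group 4 paralogues of Hoxb4 and Hoxc4, had changes of 2.40 ± 1.16 and 2.16 ± 1.13 that did not pass (authors' deposited table), and Hoxd1 was at -1.76 ± 1.13. Groups that do not overlap numbered 19 above and 4 below, against a background of 34.5% and 19.0% of genes with a base mean under 100, a limit that all 36 members met. Of the 15 calls, 14 had such groups, which is no independent check, as both come from the same libraries.

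Without 1 or another iPSC library, Hoxa2, Hoxc8, Hoxd8 and Hoxd13 were not called. The iPSC-OB group has 2 libraries, so a fit without 1 of them leaves a single library, whose spread cannot be measured. Such fits are given as refitted log2 changes only. Without iPSC-OB A, Hoxb2 was at 1.97, Hoxb4 at 2.33, Hoxb8 at 2.32, Hoxc4 at 2.08 and Hoxc9 at 2.71. Hoxb3 then went to 0.31, Hoxc8 to 0.35 and Hoxd8 to 0.19. Hoxa2, Hoxa3, Hoxa5, Hoxb5, Hoxb6 and Hoxc6 went to between 1.45 and 1.99.

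ESC-OB and iPSC-OB share no libraries, so their calls can be set side by side. Hoxa2, Hoxa3, Hoxb2, Hoxb3, Hoxb4 and Hoxb8 rose in both, which is 100% of the ESC-OB rises and 42.9% of the iPSC-OB rises. Hoxd13 fell in both, 16.7% of the 6 ESC-OB falls and 100% of the 1 iPSC-OB fall. Over all genes with an adjusted p in both tables, 56.0% of the ESC-OB rises and 83.6% of the iPSC-OB rises were shared, and 59.1% and 81.9% of the falls. Among genes with a base mean under 60 in both tables, these shares were 31.4% and 69.0% of the rises and 35.0% and 61.6% of the falls. Of the 6 shared rises, Hoxb4 and Hoxb8 were not called in ESC-OB without ESC A, nor Hoxa2 in iPSC-OB without iPSC C. Without iPSC-OB A the refitted iPSC-OB changes of Hoxa2, Hoxa3 and Hoxb3 were 1.99, 1.54 and 0.31.

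The difference of the changes was tested for the 34 members in both tables, of which 4 were higher in the iPSC series (11.0% of all genes tested) and 2 lower (17.2% of all genes). Hoxc4 had the smallest adjusted p: it rose in iPSC-OB and fell in ESC-OB, a difference of 5.79 ± 1.09 (log2, iPSC-OB change minus ESC-OB change, adjusted p = 1.80e-06). The call was kept without any 1 ESC, ESC-OB or iPSC library, and the difference was 5.51 and 5.86 without iPSC-OB A and B. Hoxb13 (6.60 ± 2.05, adjusted p = 0.00696), Hoxb9 (3.94 ± 1.25, adjusted p = 0.00813) and Hoxc13 (3.90 ± 1.05, adjusted p = 0.00143) fell in ESC-OB and did not pass in iPSC-OB. Hoxb2 (-4.37 ± 1.38, adjusted p = 0.00777) and Hoxb3 (-5.25 ± 1.5, adjusted p = 0.00285) rose in both series, from 0 reads in ESC and from 0.718 to 1.51 CPM in iPSC. The levels of Hoxb2 and Hoxb3 in the cultures were 2.51 to 6.60 CPM in ESC-OB and 1.77 to 9.76 CPM in iPSC-OB, on separate normalisations. From 0 reads the size of an ESC change depends on the shrinkage. Its width was 2.67 log2 in the rebuilt ESC fit and 1.83 in the iPSC fit, so these 2 differences are not of like quantities. The part of the starting level was not tested. Hoxb2 lost its call without ESC A (-3.11) and Hoxb13 without ESC B (4.81). The difference was 2.61 for Hoxb9 without iPSC-OB A and 2.42 for Hoxc13 without iPSC-OB B.

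**Figure D4:**
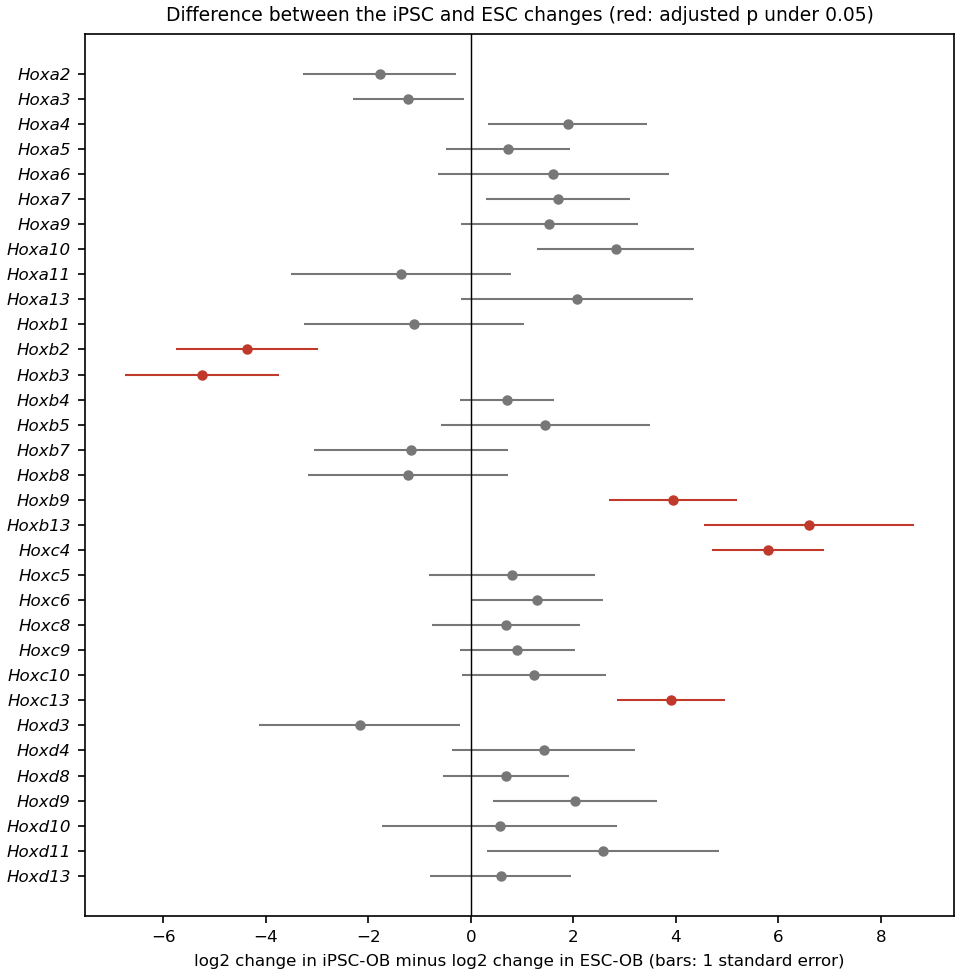
Difference of the log2 changes, iPSC-OB change minus ESC-OB change (x axis), for 33 of the 34 members present in both fits, with bars of 1 standard error and red for an adjusted p under 0.05. Hoxb2 and Hoxb3 lie at -4.37 and -5.25, Hoxb9, Hoxb13, Hoxc4 and Hoxc13 between 3.90 and 6.60, and the other 27 shown are short of the threshold.

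3 libraries stood apart from others of their group in Hox reads. The share of all genes that were highest in each was not taken. ESC B was the highest ESC library for 25 of the 28 members with a read in ESC and had 55.6 CPM in sum against 20.4 and 16.2. A single read is worth 0.0541 CPM in ESC A and 0.198 in ESC B. For Hoxa2, Hoxa6, Hoxa11 and Hoxa13 the rank rests on 1 read in ESC B. Cdx1 and Cdx2, caudal-type factors that switch on central and posterior Hox genes, were also high there, at 83.8 and 11.5 CPM against 7.30 and 6.35 and 0.811 and 1.41 CPM, as was T (brachyury) at 15 against 2.65 and 1.88 CPM. The 5 axial progenitor genes summed to 33.2 CPM in ESC B and to 12.1 and 10.1 CPM in ESC A and C, while the 8 neural markers summed to 55.0 against 137 and 159 CPM. Their part in the Hox results was not tested. Without ESC B, Hoxa5 (refitted 3.09 and 3.24) and Hoxc9 (3.78 and 3.62) passed as higher in ESC-OB and in the sorted cells, and Hoxd8 (2.27) in ESC-OB, and no fall was lost.

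Sorted C had 36.0 CPM of anterior Hox reads against 15.1 and 14, and was the highest sorted library for 9 of 11 anterior members. Its central sum was 6.54 CPM against 5.43 and 5.76, and its posterior sum 0.847 CPM against 1.58 and 1.70. The 3 osteoblast markers whose reads could be split summed to 30.6 CPM there and to 10.1 and 15.7 CPM in sorted A and B, with Sp7 at 5.55 against 0.421 and 0.911 CPM. iPSC-OB A exceeded iPSC-OB B in 32 of 36 members, while Hoxc9, Hoxc10 and Hoxc13 were among the 4 that were higher in B. The 4 neural markers of 8 that could be split summed to 48.8 CPM in iPSC-OB A and 3.34 in B, with Pax6 at 19.9 and 1.56 and Sox1 at 12.2 and 0.417 CPM. Head mesenchyme genes summed to 69.8 CPM in iPSC-OB A and 23.9 in B, higher in A for 8 of 9, and limb genes to 21.3 and 5.21 CPM, higher in A for 6 of 6. Wt1 of the kidney and mesothelium was at 5.42 and 22.2 CPM and Barx1 of the jaw mesenchyme, the head mesenchyme gene that was higher in B, at 0.952 and 9.07 CPM. The part of these other cell types in the iPSC-OB calls was not tested.

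**Figure D5:**
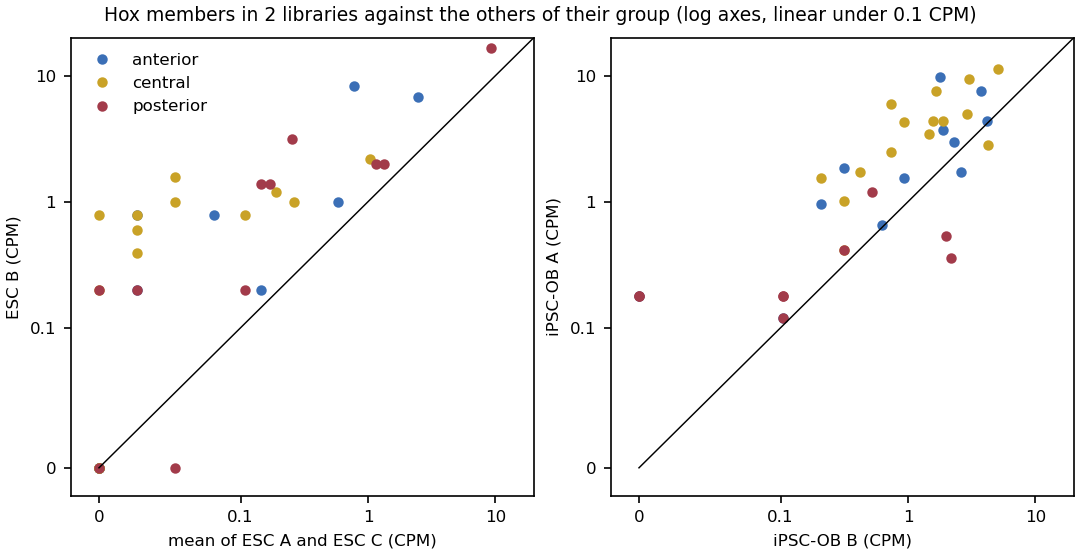
Level of each Hox member in ESC B against the mean of ESC A and ESC C (left) and in iPSC-OB A against iPSC-OB B (right), in CPM on axes that are logarithmic above 0.1 CPM and linear below, coloured by paralogue class; the diagonal marks equal levels. Nearly all points lie above the diagonal, with 25 of 28 members highest in ESC B and 32 of 36 higher in iPSC-OB A. The shares over all genes were not taken.

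Genes that act with, upstream of or beside the Hox clusters were read from lists. Over all genes tested, 38.6% were higher and 31.0% lower in ESC-OB, 39.1% and 32.4% in the sorted cells, and 26.1% and 23.1% in iPSC-OB. Hox proteins bind DNA with TALE homeodomain partners, and of 9 such genes 5 rose and 2 fell in ESC-OB, 5 and 2 in the sorted cells, and 4 and 0 in iPSC-OB. Meis1 rose by 7.28 ± 0.42, 6.99 ± 0.42 and 3.64 ± 0.49 in the authors' deposited tables (in that order) and Meis2 by 2.62 ± 0.66, 1.99 ± 0.66 and 2.59 ± 0.46.

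Of 10 retinoic acid response genes, 8 rose and 0 fell in ESC-OB, 7 and 0 in the sorted cells, and 3 and 1 in iPSC-OB, with median changes of 3.24, 4.0 and 0.62. Rarb, the receptor gene that retinoic acid itself induces, had 0.108, 0.395 and 0.235 CPM in ESC and 20.8, 22.4 and 20.9 CPM in ESC-OB. It rose by 6.62 ± 0.59 in ESC-OB and 4.10 ± 0.55 in iPSC-OB in the authors' deposited tables. Cyp26a1, which degrades retinoic acid, rose by 7.86 ± 0.68 in ESC-OB and was at 0.95 ± 0.53 in iPSC-OB without passing (authors' deposited tables).

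Of 27 regulators of Hox expression, 6 rose and 16 fell in ESC-OB, 5 and 19 in the sorted cells, and 6 and 14 in iPSC-OB. Those that fell in all 3 authors' deposited tables included Ezh2, Eed and Suz12 of Polycomb complex 2, with Ezh2 at -2.93 ± 0.14, -3.64 ± 0.13 and -1.43 ± 0.31. Cbx8, a subunit of Polycomb complex 1, rose in each (1.44 ± 0.32, 2.09 ± 0.31 and 2.94 ± 0.63 in the authors' deposited tables). Egr2, a hindbrain factor that activates Hoxb2 and Hoxa2, rose by 9.68 ± 0.91 in ESC-OB and 9.81 ± 0.91 in the sorted cells and fell by 3.33 ± 0.82 in iPSC-OB in the authors' deposited tables. Gdf11, a signal for the switch to posterior Hox genes, rose in ESC-OB (2.48 ± 0.58) and iPSC-OB (2.19 ± 0.45) and fell in the sorted cells (-1.67 ± 0.63, authors' deposited tables).

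The ParaHox and Evx genes, relatives of the Hox genes, gave 1 rise and 1 fall of 7 in ESC-OB and in the sorted cells and 1 and 2 in iPSC-OB. Cdx2 was called lower in both ESC comparisons, at -3.64 ± 1.04 and -4.30 ± 1.01, and was at 0.35 ± 0.78 in iPSC-OB in the authors' deposited tables. Without ESC B the ESC level of Cdx2 was 0.811 and 1.41 CPM, against 0.458, 0.108 and 0.314 in ESC-OB. Evx1, beside Hoxa13, fell by 4.88 ± 0.70 in iPSC-OB and was at -2.93 ± 1.52 in ESC-OB (authors' deposited tables).

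Of 10 genes flanking the clusters, 8 were lower in ESC-OB, 6 in the sorted cells and 6 in iPSC-OB, with 1 higher in each. Next to Hoxb, Calcoco2 was at -8.12 ± 0.82 in ESC-OB and -6.64 ± 0.55 in iPSC-OB, Ttll6 at -2.44 ± 0.47 and -3.16 ± 0.85, and Skap1 at -2.73 ± 1.06 and -1.09 ± 1.12, the last short of the threshold (authors' deposited tables). Next to Hoxc, Cbx5 was at -1.78 ± 0.15 and -1.19 ± 0.17, Smug1 at -0.75 ± 0.26 and 0.58 ± 0.26, and Calcoco1 at 1.13 ± 0.13 and 0.38 ± 0.20, the last not called (authors' deposited tables). Skap2 beside Hoxa was at -1.17 ± 0.17 and -0.77 ± 0.21, Mtx2 beside Hoxd at -0.94 ± 0.15 and -0.75 ± 0.20, and Lnp at -0.55 ± 0.14 and 0.05 ± 0.20, the last not called (authors' deposited tables).

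Lists of regional markers were read beside the Hox genes. Of 11 genes of head mesenchyme, most of which forms without Hox expression, 6 rose and 1 fell in ESC-OB and in the sorted cells, and 5 and 2 in iPSC-OB, with Barx1 at 6.19 ± 0.82, 7.56 ± 0.81 and 2.96 ± 0.94 in the authors' deposited tables. Of 9 limb genes, 6 rose and 1 fell in ESC-OB, 4 and 1 in the sorted cells, and 5 and 0 in iPSC-OB. Pitx1, the hindlimb factor, was at 4.70 ± 0.57, 5.75 ± 0.57 and 5.73 ± 0.54, and Tbx5, the forelimb factor, at 4.18 ± 0.68, 2.52 ± 0.68 and 2.65 ± 0.91 in the authors' deposited tables.

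The clusters also encode microRNAs, of which miR-196a is known to target Hoxb8. Its mature sequence is shown with the seed, bases 2 to 8, in capitals, and the known site in the Hoxb8 3′ UTR with the bases facing the seed in capitals (RefSeq miRNA and GENCODE transcript, GRCm38; site chr11:96284888-96284909, plus strand).
mmu-miR-196a-5p: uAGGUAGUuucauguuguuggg
Hoxb8 site: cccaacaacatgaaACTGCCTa
Counting only A with U or T and G with C, 21 of 22 bases pair in this alignment, among them 6 of the 7 that face the seed. The seed base not counted is a U that faces a G. The next best of the 39 Hox genes, Hoxd8, had a site of 15 pairing bases, and 9 of the 39 held a full match to the seed in their 3′ UTR. The mature sequence comes from 2 loci, and Mir196a-1 lies between Hoxb13 and Hoxb9 (hairpin chr11:96265164-96265265).

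Mir196a-1 had 13, 4 and 4 reads in ESC A, B and C, 0, 1 and 0 in ESC-OB and 0 in all sorted libraries. It fell by 3.94 ± 1.41 in ESC-OB (adjusted p = 0.00853) and by 6.21 ± 1.55 in the sorted cells (adjusted p = 1.22e-04) in the authors' deposited tables, as did Hoxb13 and Hoxb9 on either side of it. In iPSC it had 0, 1 and 1 reads and in iPSC-OB 5 and 0 (0.58 ± 1.29 in the authors' deposited table, not called). These reads were assigned to its locus, and whether they come from the mature microRNA or from longer transcripts was not tested. Hotair, Hoxa11os and Hoxd3os1, noncoding RNAs of Hoxc, Hoxa and Hoxd, had 0 to 4 reads in every library where they could be read.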

How the data were processed

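The files used were 3 tables of differential expression, with 0 per-sample columns. Per the submitters' processing notes the authors used STAR 2.4.2a, DESeq2, R 3.2.2 and build mm9, with no role or setting given. Per the file headers, each deposited table holds a base mean (a signal: the mean count after division by size factors), a log2 fold change and its error, a score (change over error), and the p-value and adjusted p-value. The authors' values, called at an adjusted p under 0.05, are the main result.

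Differences between comparisons were tested by a two-sided z test, adjusted by Benjamini-Hochberg over all genes in both tables. The reads of each library were derived from the deposited base means, which are sums of whole reads times 1 factor per library. Of ESC-fit genes with a base mean under 10, 5025 of 5032 had exactly 1 possible set of reads, as did 8819 of 8819 iPSC-fit genes under 100. The direction of each comparison was taken from the signs of the changes. Libraries were assigned to groups by the split whose log2 ratios of group means correlated best with the authors' changes. The mean correlation was 0.9727 in the ESC fit (next best split 0.9474) and 0.9066 in the iPSC fit (0.7908). Group membership is thus inferred from the same changes, and the 3 iPSC libraries against 2 in the labels are unexplained. For leave-one-out values the authors' model was rebuilt as a negative binomial fit with a prior on the change and fitted values held at or above 0.1. It matched 149 of 149 and 368 of 368 further genes within 0.001 log2. In the refits the prior and each gene's dispersion (its spread beyond counting error) were held at their values from all libraries. A member's call was kept if its unadjusted p did not exceed the largest one called with all libraries. That limit was 0.0347 in ESC-OB, 0.0357 in the sorted cells and 0.0246 in iPSC-OB, and p-values were not adjusted anew. These settings were settled after the data were seen, and the scripts were tested on simulated data. CPM is scaled reads per mean library total without Rn45s. Wilson intervals (95%) and floors (3 reads) cover counting error only.

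Members and lists were chosen with earlier results of these data known. Described with full statistics were the 2 largest called changes per cluster and comparison, all falls and all called differences, and other genes came from lists. Results of some genes are not reported here. Alternatives were a threshold of 0.01, no filter, a base mean of at least 10, re-centring on the median gene, a log2 change of at least 1, other errors for the sorted difference, and each library left out, also for lower bounds; class shares were also taken without Hoxc13. Tools were Python 3.11.15, numpy 2.4.6, scipy 1.17.1, pandas 2.3.3, numba 0.67.0, sympy 1.14.0 and matplotlib 3.10.9.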

Additional observations from a re-analysis of the deposited data

Results flagged for a closer look

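For 6 members the changes in the ESC and iPSC series differed by a test of the difference itself (iPSC-OB change minus ESC-OB change, log2, z test on the authors' deposited values). The difference was -4.37 for Hoxb2 and -5.25 for Hoxb3, which rose in both series. Both genes were without a read in ESC, so these values depend on the shrinkage, whose width differed between the fits. Hoxb2 lost its call without ESC A (-3.11), and without iPSC-OB A the refitted iPSC-OB change of Hoxb3 was 0.31. The difference was 5.79 for Hoxc4, which fell in ESC-OB and rose in iPSC-OB. For Hoxb9 it was 3.94, for Hoxb13 6.60 and for Hoxc13 3.90, and these 3 fell in ESC-OB and did not pass in iPSC-OB. Without ESC B the difference for Hoxb13 was 4.81, not called. It was 2.61 for Hoxb9 without iPSC-OB A and 2.42 for Hoxc13 without iPSC-OB B. The cell line, the passage range and the fit all differ between the series and cannot be told apart.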

How the results depend on the processing

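No called member reversed its direction under any alternative run; re-centring turned the sign of 1 member in ESC-OB and 2 in the sorted cells, none of them called. No paired analysis was possible because no value column carries a replicate number and the libraries behind the base means cannot be tied to labelled samples. With a base mean of at least 10, members lower numbered 2 in place of 6 in ESC-OB, 2 in place of 6 in the sorted cells and 0 in place of 1 in iPSC-OB, and members with a higher difference, iPSC-OB minus ESC-OB, numbered 1 in place of 4; fewer members are eligible there. At an adjusted p of 0.01, 0 members were lower in iPSC-OB, and 0 in place of 1 had a lower sorted minus ESC-OB difference. That last count was 2 with the shared ESC error taken out and 3 with the error of the rebuilt fit, where 1 in place of 0 was higher; the construction of these errors accounts for it. With each library left out in turn (chosen after seeing the data), members higher ranged from 4 to 8 and lower from 6 to 7 in ESC-OB. In the sorted cells the ranges were 4 to 8 and 6 to 6. In iPSC-OB, 14 members were higher and 1 lower with all libraries. Without 1 or another iPSC library, the rises of Hoxa2, Hoxc8 and Hoxd8 and the fall of Hoxd13 were not called. A fit without 1 iPSC-OB library leaves a single library, so its calls are not counted. Without iPSC-OB A, 5 of the 14 rises (Hoxb2, Hoxb4, Hoxb8, Hoxc4 and Hoxc9) had refitted log2 changes of 1.97 to 2.71. The other rises had 0.19 to 1.99. Without iPSC-OB B, the 14 rises had 1.85 to 3.28. Over the ESC, ESC-OB and iPSC libraries left out, the iPSC-OB minus ESC-OB differences ranged from 3 to 4 higher and 1 to 2 lower. Hoxc8 in iPSC-OB lost its call with no filter and with re-centring (1.29), and Hoxd8 in the sorted cells with re-centring (1.61); the cause was not tested. Few reads limit most members: a group without a read allows up to 3 reads.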

Other observations

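Markers of other cell types were read beside the Hox genes. Given as rises and falls in ESC-OB, the sorted cells and iPSC-OB in the authors' deposited tables, endothelial genes gave 3 and 1 of 4 in each, cardiac genes 4 and 0, 3 and 0, and 2 and 0 of 4, and blood and macrophage genes 3 and 0, 2 and 0, and 2 and 0 of 3. Epithelial and endodermal genes gave 4 and 1, 5 and 1, and 4 and 2 of 6, and kidney and urogenital genes 1 and 0, 2 and 0, and 1 and 0 of 4. Neural genes gave 1 and 4, 0 and 5, and 1 and 2 of 8. Neural crest genes gave 2 and 1, 1 and 1, and 2 and 1 of 4. Axial progenitor genes, which build the trunk and tail, gave 0 and 3 of 5, 1 and 2 of 5, and 0 and 3 of 6. The part of these cell types in the Hox results was not tested.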
